A study of Mus musculus with 12 samples.

Results

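The extracellular proteases of the matrix metalloproteinase (MMP) and ADAMTS families and their inhibitors, the TIMPs, were followed in cultured adventitial fibroblasts of the mouse aorta. The 37 genes were taken by family name. They comprised 18 *Mmp*, 4 *Timp* and 15 *Adamts* genes out of 54352 gene symbols in the count table, and the ADAMTS genes whose products trim procollagens (*Adamts2*, *Adamts3* and *Adamts14*) were left out. Adventitia from the ascending and the descending aorta of WT C57Bl/6 mice was minced and grown out in culture. The labels give the age as 14 weeks, and the study's methods give a younger age for these cultures. The labels give 1 passage, and the study's text is not uniform on this number. The cells received mouse TGFβ (10 ng/mL) or a solute control over 48 h. Bulk RNA was sequenced from 12 cultures, 3 in each of 4 groups, which are called descending control, descending TGFβ, ascending control and ascending TGFβ. All 12 carried the same batch label, no allele was altered in any of them, and the cells were primary outgrowths of the whole adventitia, not sorted or cloned. It was not stated whether the 3 cultures of a group came from separate animals, so p-values measure the spread between these cultures only, which may be technical.

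MMPs are zinc-dependent endopeptidases, secreted or tethered to the cell surface, that are made as inactive proenzymes and, once activated inside or outside the cell, cleave collagens, elastin, laminins and other matrix and surface proteins. ADAMTS proteases share a related catalytic domain joined to thrombospondin repeats, and many of them cut the large proteoglycans versican and aggrecan or handle fibrillin microfibrils. The TIMPs bind the active site of these enzymes, and TIMP3, which is retained in the matrix, also inhibits several ADAMTS and ADAM proteases. In the aorta these proteins govern the turnover of elastic lamellae, collagen and proteoglycans, and TGFβ is a known regulator of many of them.

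Between 16250126 and 23892943 counts per library lay on genes, and the 37 genes took 1.27 to 1.76% of them. Levels are given as normalized CPM, that is counts relative to library size after edgeR's TMM scaling over the 12 libraries. A library with 3 counts or fewer of a gene was taken as being at the floor, which lay at 0.117 to 0.207 normalized CPM and covers counting error only, since without molecular identifiers a read is not an independent molecule. The descending control replicate 3 stood apart: 13031 genes had a count in it against 19337 to 20931 in the others, mitochondrial genes took 11% of its counts against 0.703 to 1.03%, and across genes it correlated with descending control replicates 1 and 2 at a Pearson's r of 0.906 and 0.910, against 0.995 to 0.997 within the remaining pairs of replicates. Results that rest on descending controls are therefore given with and without this library. All 9 fibroblast markers, *Col1a1*, *Dcn* and *Pdgfra* among them, were above the floor in the 12 libraries. The summed level of 7 smooth muscle markers was 2509 to 2554 in descending control, 7961 to 8382 in descending TGFβ, 1579 to 1692 in ascending control and 5108 to 5194 normalized CPM in ascending TGFβ. These sums were mostly *Acta2*, and *Myh11*, the most specific of the list, stood at 43.5 to 83.8, 67.3 to 81.2, 23.2 to 25.5 and 12.5 to 17.6 in the same order, so that its ascending TGFβ libraries lay below the ascending controls. That of 6 endothelial markers was 23.9 to 26.8, 9.64 to 11.3, 24.4 to 27.9 and 4.86 to 5.72 in the same order, with *Emcn* at or under the floor throughout. In descending control these sums were mostly *Tek*, and in replicate 3 the other 5 endothelial markers were at 0. That of 4 adipocyte markers was 22.4 to 30.6, 9.74 to 18.5, 0.912 to 4.99 and 0.0473 to 0.574, and that of 5 mesothelial markers, with *Wt1* at or under the floor, was 6.89 to 13, 12.2 to 13.9, 33.5 to 44.2 and 19.7 to 26.5. The part of these marker differences in the results was not tested. In bulk RNA, fewer cells of one type and less RNA per cell cannot be told apart.

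Of the 37 genes, 26 passed edgeR's filter on low counts over the 12 libraries (13 *Mmp*, 3 *Timp* and 10 *Adamts*). The 11 that did not were *Mmp7*, *Mmp8*, *Mmp10*, *Mmp24*, *Mmp25*, *Timp4*, *Adamts16*, *Adamts17*, *Adamts18*, *Adamts19* and *Adamts20*. *Mmp7* and *Adamts19* had no count in any library, and the highest count of any of the other 9 in a library was 13, that of *Mmp25*. These 11 genes were not tested. *Mmp25* had 3, 6 and 7 counts in ascending control and 0, 1 and 2 in ascending TGFβ, which did not overlap. The filter is applied to the libraries compared, so that 23 to 26 of the genes entered each comparison.

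Per kilobase of exon, the scale on which genes can be compared, *Timp1*, *Timp2* and *Timp3* were the most abundant of the 37 genes. In ascending control *Timp2* stood at 2110.1 ± 49.7 normalized CPM per kb (SD, n = 3), followed by *Timp1* at 794 ± 40.4 and *Timp3* at 247 ± 6.09. The gelatinase gene *Mmp2* came next at 235 ± 6.28, close to *Timp3*, followed by the proteoglycanase genes *Adamts5* at 202 ± 4.28 and *Adamts1* at 189 ± 3.91 and by *Mmp14*, the main membrane-type MMP, at 86.0 ± 3.71. With TGFβ the leading position passed to *Timp1*, at 1557 ± 7.97 in ascending and 1092 ± 57.8 in descending fibroblasts, against 932 ± 19.2 and 898 ± 42.0 for *Timp2*. In descending control, where *Adamts1* at 304 ± 33.0 was above *Mmp2* at 145 ± 42.5 (without replicate 3, 323 ± 6.66 and 169.9 ± 3.53 with n = 2), the order of the leading proteases differed from that in ascending control. The summed level per kb of the 4 TIMP genes was 2.69 to 3.81 times that of the 33 protease genes in the 12 libraries. The lowest 2 of these ratios, 2.69 and 2.74, were those of descending control replicates 1 and 2, and replicate 3 stood at 3.61. Ascending controls had ratios of 3.49 to 3.71, ascending TGFβ of 3.75 to 3.81 and descending TGFβ of 3.35 to 3.70. These sums describe RNA and no test was attached to them.

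**Figure D1:**
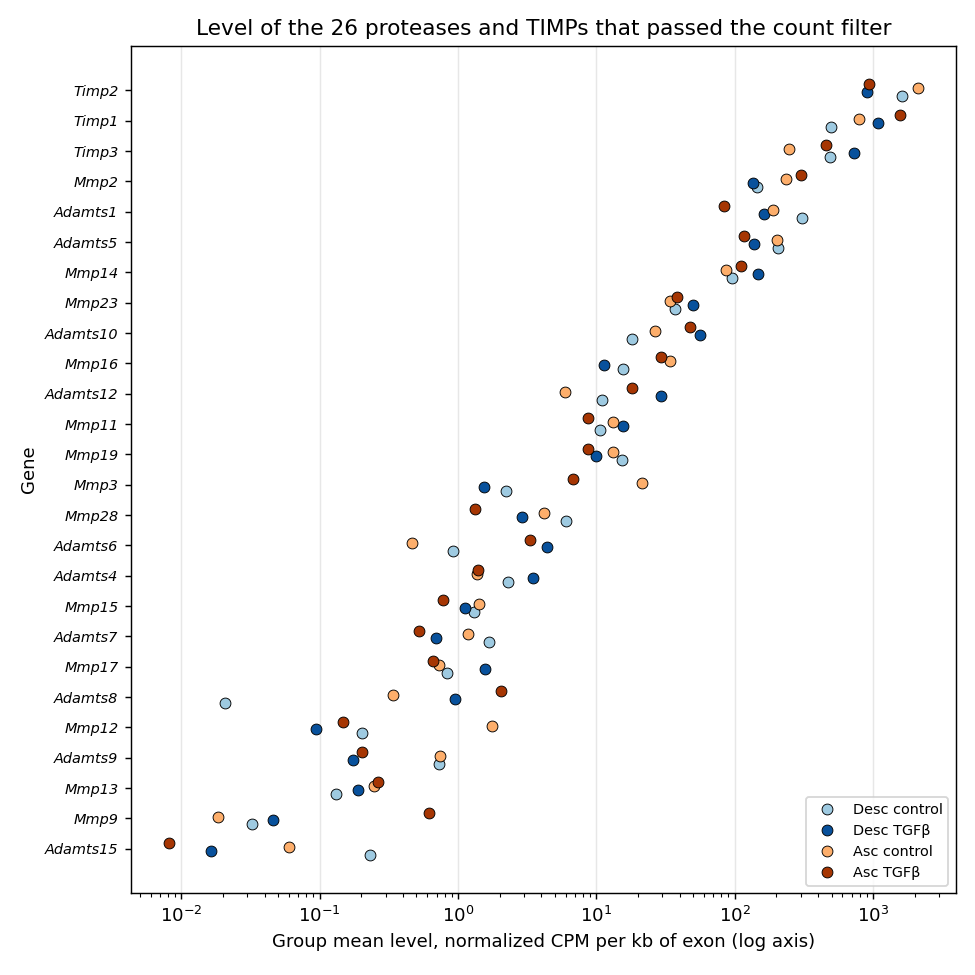
Mean level of each of the 26 genes that passed the count filter in each of the 4 groups (n = 3), in normalized CPM per kb of exon on a log axis, with genes ordered by their mean over the groups. *Timp2*, *Timp1* and *Timp3* lead, while *Mmp9* and *Adamts15* are among the lowest.

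The first question was how the fibroblasts of each site answer TGFβ. In ascending fibroblasts 22 of the 25 genes tested changed at an adjusted p under 0.05 (quasi-likelihood test of edgeR, Benjamini-Hochberg adjusted over all genes tested; such genes are called), 10 up and 12 down. The background was high, since 55.8% of all 13917 genes tested were called, 28.2% up and 27.6% down. The genes that rose were *Timp1*, *Timp3*, *Mmp2*, *Mmp9*, *Mmp14*, *Mmp23*, *Adamts6*, *Adamts8*, *Adamts10* and *Adamts12*. Those that fell were *Timp2*, *Mmp3*, *Mmp11*, *Mmp12*, *Mmp15*, *Mmp16*, *Mmp19*, *Mmp28*, *Adamts1*, *Adamts5*, *Adamts7* and *Adamts9*. The 3 genes tested and not called were *Mmp13*, *Mmp17* and *Adamts4*. All 22 calls held with each of the 6 libraries left out in turn. With the 12 libraries in one fit, which then included descending control replicate 3 in the shared spread, 14 calls held against 16% of all genes tested, and *Mmp2*, *Mmp3*, *Mmp11*, *Mmp12*, *Mmp14*, *Mmp15*, *Mmp16* and *Mmp23* were lost.

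In descending fibroblasts 10 of 23 genes tested changed with all 6 libraries, 5 up (*Timp1*, *Adamts6*, *Adamts8*, *Adamts10* and *Adamts12*) and 5 down (*Timp2*, *Adamts1*, *Adamts5*, *Adamts7* and *Adamts9*), against a background of 8.07% of all genes tested (3.59% up and 4.48% down). Without control replicate 3 the test called 21 of 25 genes, 9 up and 12 down, against a background of 52.9% (26.6% up and 26.3% down). Of the 12, *Adamts15* passed the filter only through the control libraries, where it was high. *Timp1* and *Adamts6* were called with any single library left out, and *Adamts9* with 2 of the 6 left out in turn, while the other 7 calls held only when control replicate 3 was the library left out. With no filter on low counts *Timp2* (adjusted p = 0.0614) and *Adamts5* (0.139) were not called. The 10 genes called with all libraries had the same direction in ascending fibroblasts. Of these, *Adamts8* passed the filter of the descending comparison only through its TGFβ libraries, where it was high. Set against the fit without replicate 3, 18 genes were called in both sites. Of these 7 rose in both, 10 fell in both, and *Mmp2* changed in opposite directions. Over all genes tested, 55.8% were called in ascending and 52.9% in descending fibroblasts without replicate 3. The share of all genes called at both sites was not counted, so the shared calls have no background beside them. The ascending and the descending comparison share no library.

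**Figure D2:**
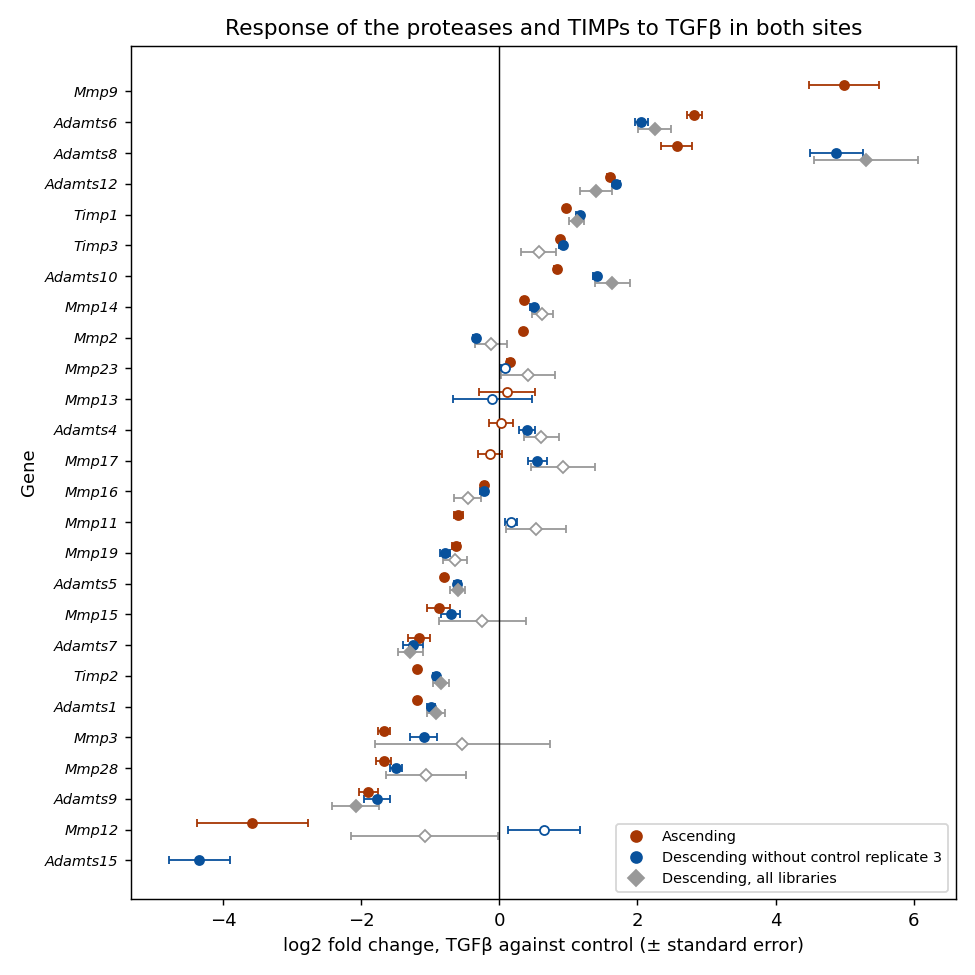
Log2 fold change of each gene with TGFβ (horizontal axis, ± standard error) in ascending fibroblasts (n = 3 against 3), in descending fibroblasts without control replicate 3 (3 against 2) and in descending fibroblasts with all libraries (3 against 3). Filled symbols mark an adjusted p under 0.05. *Mmp9* rises and *Mmp12* falls furthest in ascending fibroblasts, *Adamts8* rises further in descending ones, and the all-library descending values carry wide errors. Without ascending control replicate 2, which is included here, the value of *Mmp12* was -1.45.

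Among the inhibitors, *Timp1* rose and *Timp2* fell with TGFβ at both sites, and *Timp3* rose in ascending fibroblasts and, without control replicate 3, in descending ones. Log2 fold changes are given ± their standard error from here on. *Timp1* (chrX:20870166-20874735, GRCm38) encodes a secreted inhibitor of most soluble MMPs. Its level was 741, 669.5 and 704 normalized CPM in the 3 ascending control libraries and 1374, 1386 and 1387 with TGFβ, a log2 fold change of 0.97 ± 0.03 (adjusted p = 1.34e-13). In descending fibroblasts it was 442, 424 and 464 in control and 999.7, 910.0 and 998 with TGFβ, a log2 fold change of 1.12 ± 0.11 (adjusted p = 0.00397), and 1.17 ± 0.05 without control replicate 3. The 4 groups did not overlap, and ascending libraries were above descending ones under the same treatment. The log2 site difference, ascending against descending, was 0.67 ± 0.10 (adjusted p = 0.0328) in control and 0.51 ± 0.04 (adjusted p = 3.26e-12) with TGFβ. In control this call was lost when any single library other than descending control replicate 3 was left out.

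*Timp2* (chr11:118301069-118355740), whose product takes part in the activation of pro-MMP2 by MMP14 besides inhibiting MMPs, moved the other way. It stood at 8444, 8109 and 8109.6 normalized CPM in ascending control and at 3665, 3680.2 and 3543 in ascending TGFβ, a log2 fold change of -1.19 ± 0.02 (adjusted p = 2.94e-16). Descending libraries went from 6519, 6729 and 5529 to 3467, 3676 and 3354, a log2 fold change of -0.85 ± 0.11 (adjusted p = 0.0108), and -0.92 ± 0.05 without control replicate 3. Control and TGFβ libraries did not overlap at either site. With TGFβ the sites lay close together, with a log2 difference of 0.06 ± 0.04 (not called). In control the ascending level was the higher one in every library, a log2 difference of 0.40 ± 0.11 (not called) with all libraries and 0.32 ± 0.02 without replicate 3.

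*Timp3* (chr10:86300372-86349506), which encodes the matrix-bound TIMP, was at 1954, 2049.7 and 2023 normalized CPM in ascending control and 3839, 3713 and 3549.6 in ascending TGFβ, a log2 fold change of 0.88 ± 0.03 (adjusted p = 1.86e-13). In descending control it was 3089, 3198 and 5623, so that replicate 3 lay close to the descending TGFβ libraries, which were at 5786, 6379 and 5651. The descending log2 fold change was 0.57 ± 0.26 (adjusted p = 0.251) with that library and 0.92 ± 0.05 (adjusted p = 1.17e-15) without it. Ascending libraries were below descending ones under the same treatment. The log2 site difference of *Timp3* was -0.68 ± 0.04 (adjusted p = 1.91e-14) with TGFβ, and in control -0.98 ± 0.26 (not called) with all libraries and -0.63 ± 0.03 without replicate 3. The exons of *Timp3* overlap those of *Syn3* on the opposite strand over 21.3% of their length, and *Syn3* had 6 to 38 counts against at least 41056 for *Timp3*. *Timp4* had at most 2 counts in a library.

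**Figure D3:**
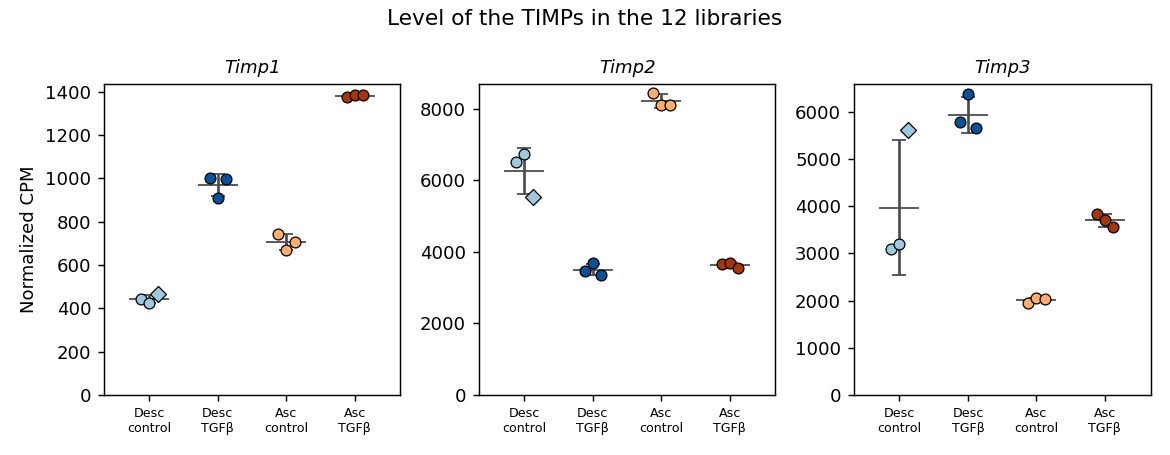
Level of *Timp1*, *Timp2* and *Timp3* in normalized CPM in each of the 12 libraries (points), with the mean and SD of each group (n = 3). The diamond is descending control replicate 3. *Timp1* and *Timp3* are higher and *Timp2* is lower with TGFβ in ascending fibroblasts, with no overlap, and the 4 groups of *Timp1* do not overlap.

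Of the gelatinases, *Mmp2* was abundant at both sites, whereas *Mmp9* passed 1 normalized CPM only in ascending TGFβ libraries. *Mmp2* (chr8:92827291-92853420) encodes the constitutive gelatinase of fibroblasts. In ascending fibroblasts its level was 789, 816 and 774 normalized CPM in control and 1039, 990.4 and 1001 with TGFβ, a log2 fold change of 0.34 ± 0.03 (adjusted p = 3.47e-08). In the descending cultures it was 564, 581 and 325 in control and 449, 473 and 439 with TGFβ. The groups overlapped there because of control replicate 3, and the log2 fold change was -0.12 ± 0.23 (adjusted p = 0.796) with that library and -0.33 ± 0.05 (adjusted p = 7.99e-07) without it. Every ascending library was above every descending library. The ascending TGFβ level was 2.23 times the descending one, a log2 difference of 1.16 ± 0.04 (adjusted p = 1.98e-20). In control the site difference was 0.70 ± 0.23 (not called) with all libraries and 0.48 ± 0.04 without replicate 3.

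*Mmp9* (chr2:164940780-164955850) encodes the inducible gelatinase best known from neutrophils and macrophages. It had 0, 1 and 3 counts in the ascending controls, at or under the floor, and 36, 51 and 47 in ascending TGFβ, or 1.88, 2.41 and 2.29 normalized CPM. The TGFβ libraries were at least 15.4-fold higher, taking 3 counts per control library as the floor (adjusted p = 2.96e-07). In descending libraries *Mmp9* had 1, 7 and 0 counts in control and 3, 0 and 7 with TGFβ, too few for the filter on that comparison. With TGFβ the scaled counts were 13 times higher in ascending than in descending libraries (95% interval 6.88 to 27.8 from counting error only), a called difference (adjusted p = 1.3e-07). *Mmp9* passed the filter only through its ascending TGFβ libraries, so that a difference in that direction was built into these tests. The fitted log2 site difference was 3.66, and between 3.13 and 4.70 with single libraries left out, the latter without descending TGFβ replicate 3. The neutrophil genes *S100a8* and *S100a9* were at or under the floor in every library of each group. The summed level of 9 leukocyte markers was 28.9 to 41.2 normalized CPM in ascending TGFβ. It was 52.3 to 349 in ascending control and 13.6 to 26.3 in descending TGFβ. The part of these markers in the *Mmp9* values was not tested.

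The secreted collagenase genes *Mmp8* and *Mmp13* were low. *Mmp8* had at most 2 counts in a library. *Mmp13* (chr9:7272514-7283331) was at 0 to 1.05 normalized CPM, its groups overlapped in every pairwise comparison, and it was not called in any comparison in which it was tested with all libraries. It did not pass the filter for TGFβ in descending fibroblasts with all libraries. Between sites with TGFβ its log2 difference was 0.52 ± 0.48 (not called), and it was called when descending TGFβ replicate 2 was left out (log2 difference 1.50, adjusted p = 0.0417). Its log2 fold change with TGFβ in ascending fibroblasts was 0.12 ± 0.40 (not called).

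*Mmp3* encodes stromelysin-1, which cleaves proteoglycans, fibronectin and the propeptides of other MMPs. It fell with TGFβ in ascending fibroblasts and with TGFβ was higher there than in descending fibroblasts. The gene lies in a cluster of MMP genes on chromosome 9, with *Mmp13*, *Mmp12*, *Mmp10*, *Mmp8* and *Mmp7*, from 7272514 to 7699585 (GRCm38). Its level was 40.9, 39.4 and 34.5 normalized CPM in ascending control and 10.7, 13.7 and 11.9 in ascending TGFβ, a log2 fold change of -1.66 ± 0.09 (adjusted p = 5.39e-11). Descending controls were at 5.44, 6.46 and 0 and descending TGFβ libraries at 2.35, 2.55 and 3.40. The descending change was -0.53 ± 1.26 (adjusted p = 0.835) with all libraries, where replicate 3 had no count of *Mmp3*, and -1.09 ± 0.19 (adjusted p = 2.04e-05) without it. Every ascending library was above every descending library. With TGFβ the ascending level was 4.36 times the descending one, a log2 difference of 2.13 ± 0.15 (adjusted p = 2.04e-12). In control the site difference was 3.25 ± 1.11 (not called) with all libraries and 2.70 ± 0.10 without replicate 3. *Mmp3* shares 8.39% of its 50-base exon sequences with *Mmp10*, which had at most 8 counts, and how reads matching several genes were counted was not stated.

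The promoters of this cluster are shown because 5 of its genes hold the letters to which AP-1 binds and these genes differed in level. A window of 250 bases before to 50 after the RefSeq start (GRCm38.p6) was given for 23 of the 37 genes. The letters TGAGTCA or TGACTCA, searched on both strands, each being the reverse complement of the other, were found in windows of *Mmp3*, *Mmp7*, *Mmp10*, *Mmp12* and *Mmp13* and in 5.202% of all 32851 windows of that length. The SMAD letters CAGACA were found in windows of 5 of the 23 genes (21.04% of all windows), and the ETS letters AGGAAGT in windows of 6 (9.351%). Counted by window, AP-1 letters were in 5 of the 26 windows given for these genes, SMAD letters in 5 and ETS letters in 6. *Mmp7* and *Mmp12* each had a further window without AP-1 letters. The 200 bases just before the start of *Mmp3*, *Mmp10* and *Mmp13* and, for a gene outside the cluster that rose, of *Timp1* follow 5′ to 3′ on the strand of the gene, with AP-1 and ETS letters in capitals. *Mmp10* and *Mmp13* were chosen after their values were seen.
*Mmp3* (chr9:7445622-7445821, plus strand): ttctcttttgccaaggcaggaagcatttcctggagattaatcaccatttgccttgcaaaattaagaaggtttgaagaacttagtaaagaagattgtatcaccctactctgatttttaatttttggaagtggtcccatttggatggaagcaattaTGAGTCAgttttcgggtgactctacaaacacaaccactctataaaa
*Mmp10* (chr9:7502142-7502341, plus strand): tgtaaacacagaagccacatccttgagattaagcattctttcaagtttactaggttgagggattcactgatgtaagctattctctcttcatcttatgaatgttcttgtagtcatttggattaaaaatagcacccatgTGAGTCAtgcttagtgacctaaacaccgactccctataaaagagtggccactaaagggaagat
*Mmp13* (chr9:7272314-7272513, plus strand): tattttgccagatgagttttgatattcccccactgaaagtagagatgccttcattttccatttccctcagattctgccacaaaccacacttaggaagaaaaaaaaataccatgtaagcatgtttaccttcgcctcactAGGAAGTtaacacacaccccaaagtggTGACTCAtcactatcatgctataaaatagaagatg
*Timp1* (chrX:20869966-20870165, plus strand): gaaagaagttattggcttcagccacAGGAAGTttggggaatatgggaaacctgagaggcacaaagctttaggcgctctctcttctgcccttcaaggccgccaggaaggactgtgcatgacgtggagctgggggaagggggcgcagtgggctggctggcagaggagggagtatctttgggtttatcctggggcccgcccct
The AP-1 letters began 46 bases before the start in *Mmp3*, 63 in *Mmp10* and 35 in *Mmp13*, where AGGAAGT also began 62 bases before it. In *Timp1* AGGAAGT began 175 bases before the start and no AP-1 letters were in the window. *Mmp3* fell with TGFβ at a level well above the floor, whereas *Mmp10* and *Mmp13* were at 1.05 normalized CPM or below in every library. A match of letters describes the sequence only.

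*Mmp12* encodes macrophage metalloelastase, an elastin-cleaving enzyme typical of macrophages, and its values turned on single libraries. They were 3.00, 32.4 and 2.77 normalized CPM in ascending control, 1.62, 0.804 and 0.779 in ascending TGFβ, 0.389, 0.477 and 3.52 in descending control and 0.255, 1.08 and 0.709 in descending TGFβ. Ascending control replicate 2 was far above the others, and among descending libraries control replicate 3 was the highest. The log2 fold change with TGFβ in ascending fibroblasts was -3.58 ± 0.80 (adjusted p = 0.00116), and -1.45 (adjusted p = 0.000212) without ascending control replicate 2, while leaving out each other library gave -4.05 to -3.39. Among descending libraries it was -1.08 ± 1.07 (not called) with all libraries and 0.65 ± 0.53 (not called) without replicate 3. In ascending control replicate 2 the summed level of the 9 leukocyte markers was 349 normalized CPM, against 52.3 and 57.7 in the other 2 ascending controls. *Lyz2* was at 291, *Cd68* at 17.8, *Adgre1* at 12.5, *Csf1r* at 14.6 and *Tyrobp* at 8.14 normalized CPM in that library, each above its levels in the other 2, and *S100a9* was at 0 in all ascending controls. Between sites in control the log2 difference of *Mmp12* was 3.17 ± 1.40 (not called) with all libraries, 4.86 ± 1.15 without descending control replicate 3 and 1.00 (not called) without ascending control replicate 2. The part of these markers in the *Mmp12* values was not tested.

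**Figure D4:**
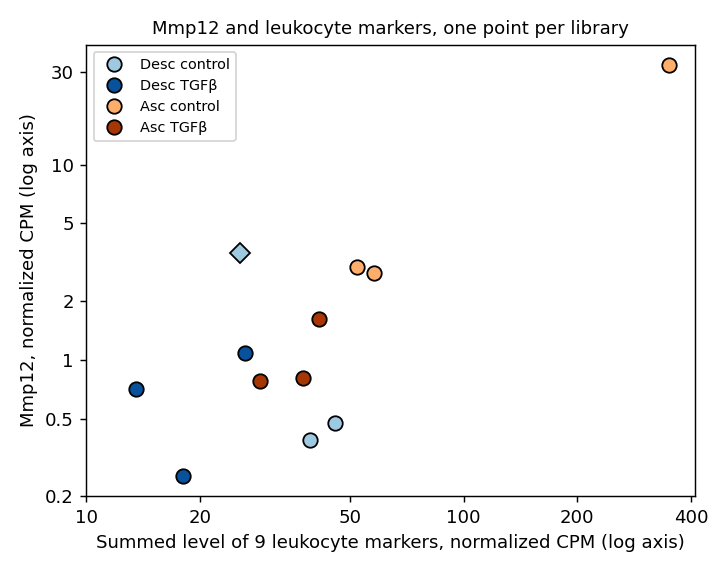
Level of *Mmp12* (vertical axis) against the summed level of 9 leukocyte markers (horizontal axis), both in normalized CPM on log axes, with 1 point per library and the 4 groups in color. The diamond is descending control replicate 3. Ascending control replicate 2, at 32.4 for *Mmp12* and 349 for the markers, stands apart from the other 11 libraries.

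Of the membrane-type MMPs, *Mmp14* rose with TGFβ in ascending fibroblasts and, without control replicate 3, in descending ones, *Mmp15* and *Mmp16* fell in ascending fibroblasts, and with TGFβ *Mmp16* and *Mmp17* differed between sites in opposite directions. *Mmp14* encodes the main activator of pro-MMP2 and a collagenase of the cell surface. Its level went from 507, 536 and 493 to 664, 656 and 653 normalized CPM in ascending fibroblasts (log2 fold change 0.35 ± 0.03, adjusted p = 6.97e-08). In descending fibroblasts it went from 619, 622 and 456 to 859, 924 and 841, a log2 fold change of 0.62 ± 0.15 (adjusted p = 0.0655) with all libraries and 0.50 ± 0.05 (adjusted p = 8.1e-10) without replicate 3. Control and TGFβ libraries did not overlap at either site. The log2 site difference was -0.41 ± 0.04 (adjusted p = 3.67e-10) with TGFβ, and in control -0.14 ± 0.15 (not called) with all libraries and -0.26 ± 0.04 without replicate 3.

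*Mmp15*, another transmembrane MMP gene, was at 8.08, 6.74 and 8.18 normalized CPM in ascending control and 4.49, 3.26 and 4.82 with TGFβ, a log2 fold change of -0.88 ± 0.17 (adjusted p = 0.000248). Descending levels were 10.5, 9.19 and 1.59 in control and 5.76, 5.74 and 6.57 with TGFβ, a log2 fold change of -0.24 ± 0.64 (not called) with all libraries and -0.70 ± 0.14 without replicate 3. With TGFβ the log2 site difference was -0.53 ± 0.16 (adjusted p = 0.011), a call lost without descending TGFβ replicate 3 (adjusted p = 0.0616) or ascending TGFβ replicate 2 (0.0946).

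*Mmp16*, a further transmembrane MMP gene, separated the sites. Ascending libraries were at 300.3, 284 and 301 normalized CPM in control and 257, 252 and 256 with TGFβ, and descending ones at 112, 118 and 173 and 98.7, 99.6 and 96.7. No ascending library overlapped a descending one. The log2 site difference of *Mmp16* was 1.38 ± 0.04 (adjusted p = 1.68e-21) with TGFβ, and in control 1.14 ± 0.20 (adjusted p = 0.0477) with all libraries and 1.38 ± 0.05 without replicate 3. In control with all libraries the call was lost when any other single library was left out, and with DESeq2's size factors (adjusted p = 0.057). Its response to TGFβ was small, at -0.22 ± 0.03 in ascending fibroblasts and, in descending ones, -0.46 ± 0.20 (not called) with all libraries and -0.22 ± 0.05 without replicate 3.

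*Mmp17*, which encodes a GPI-anchored MMP, was at 5.43, 4.64 and 4.28 and 5.06, 4.21 and 3.90 normalized CPM in ascending control and TGFβ, groups that overlapped. Descending levels were 7.89, 6.33 and 2.14 in control and 11.4, 9.65 and 10.2 with TGFβ, a log2 fold change of 0.92 ± 0.46 (not called) with all libraries and 0.55 ± 0.14 without replicate 3. With TGFβ the descending level was 2.37 times the ascending one (log2 difference, ascending against descending, -1.25 ± 0.14, adjusted p = 1.28e-08). In control the difference was -0.19 ± 0.48 (not called) with all libraries and -0.56 ± 0.17 without replicate 3. *Mmp24* and *Mmp25*, the remaining membrane-type genes, had at most 10 and 13 counts.

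Of the other MMPs, *Mmp28* and *Mmp19* fell with TGFβ in ascending fibroblasts and, without control replicate 3, in descending ones. *Mmp28*, which encodes epilysin, was at 16.3, 16.4 and 16.2 normalized CPM in ascending control and 4.80, 4.82 and 5.75 with TGFβ, a log2 fold change of -1.67 ± 0.11 (adjusted p = 7.71e-10). In the descending cultures it went from 31.8, 31.8 and 6.41 to 10.2, 11.7 and 11.9, where replicate 3 of the control lay below the TGFβ libraries. The descending log2 fold change was -1.06 ± 0.57 (not called) with that library and -1.50 ± 0.09 (adjusted p = 2.03e-14) without it. *Mmp28* was lower in ascending than in descending fibroblasts with TGFβ, a log2 difference of -1.13 ± 0.13 (adjusted p = 2.3e-08). In control the site difference was -0.51 ± 0.56 (not called) with all libraries and -0.95 ± 0.07 without replicate 3. Its exons overlap those of *1700020L24Rik* on the opposite strand over 12.0% of their length, and that gene had 7 to 171 counts against 92 to 818 for *Mmp28*.

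*Mmp19* was at 49.6, 43.5 and 47.3 normalized CPM in ascending control and 32.8, 29.6 and 29.0 with TGFβ, a log2 fold change of -0.63 ± 0.06 (adjusted p = 2.11e-07). At the descending site it was at 59.7, 60.2 and 41.7 and 35.3, 36.6 and 32.5, a log2 fold change of -0.64 ± 0.18 (not called) with all libraries and -0.78 ± 0.07 (adjusted p = 4.91e-11) without replicate 3. Control and TGFβ libraries did not overlap at either site. The sites overlapped with TGFβ, where the log2 difference was -0.19 ± 0.07 (adjusted p = 0.0294), and this call was lost with 4 of 6 libraries left out in turn (highest adjusted p 0.139) and with DESeq2 (0.0642). The exons of *Mmp19* overlap those of *Tmem198b* on the opposite strand over 22.3% of their length. That gene had 272 to 583 counts against 595 to 1534 for *Mmp19*, and without strand, reads of the pair cannot be told apart in the overlap.

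*Mmp11*, which encodes stromelysin-3, an MMP activated inside the cell by furin, fell in ascending fibroblasts. It was at 34.6, 39.5 and 34.9 normalized CPM in ascending control and 24.3, 25.9 and 22.3 with TGFβ, a log2 fold change of -0.59 ± 0.07 (adjusted p = 1.81e-06). Descending controls were at 40.8, 36.0 and 12.1 and descending TGFβ libraries at 39.5, 48.9 and 41.2, a log2 fold change of 0.53 ± 0.43 (not called) with all libraries and 0.17 ± 0.08 (not called) without replicate 3. In control the sites overlapped. With TGFβ the ascending level was below the descending one in every library, a log2 difference of -0.83 ± 0.08 (adjusted p = 3.36e-10).

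*Mmp23*, which had small differences throughout, was at 79.5 ± 1.22 normalized CPM in ascending control, 88.7 ± 2.17 in ascending TGFβ, 86.6 ± 41.0 in descending control and 116 ± 6.96 in descending TGFβ (SD, n = 3 each). Its log2 fold change with TGFβ was 0.15 ± 0.04 in ascending fibroblasts, a rise that was called, and in descending ones 0.42 ± 0.39 (not called) with all libraries and 0.08 ± 0.06 (not called) without replicate 3. Its log2 site difference was -0.39 ± 0.05 with TGFβ, and in control -0.12 ± 0.39 (not called) with all libraries and -0.46 ± 0.05 without replicate 3.

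Of the ADAMTS proteoglycanases, *Adamts1*, *Adamts5* and *Adamts9* fell with TGFβ at both sites and *Adamts8* rose at both. *Adamts1* (chr16:85793827-85803113) and *Adamts5* (chr16:85856173-85901828) are neighbors on the minus strand of chromosome 16, and their products cleave versican and aggrecan. *Adamts1* was at 1027, 992 and 990.0 normalized CPM in ascending control and 422, 449.9 and 450.4 with TGFβ, a log2 fold change of -1.19 ± 0.03 (adjusted p = 6.65e-15). Among descending libraries it was at 1735, 1685 and 1410.0 and 799, 939 and 842, a log2 fold change of -0.91 ± 0.13 (adjusted p = 0.0129) with all libraries and -0.99 ± 0.05 without replicate 3. Control and TGFβ libraries did not overlap at either site, and each descending library was above each ascending one under the same treatment. The log2 site difference was -0.96 ± 0.04 (adjusted p = 1.16e-16) with TGFβ. In control it was -0.68 ± 0.11 (adjusted p = 0.0437) with all libraries, a call lost when any single library other than descending control replicate 3 was left out, and -0.76 ± 0.03 without replicate 3.

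*Adamts5* was at 2129, 2207 and 2211 normalized CPM in ascending control and 1267, 1272 and 1236 with TGFβ, a log2 fold change of -0.80 ± 0.03 (adjusted p = 1.03e-13). At the descending site it was at 2230.4, 2261 and 2185 and 1385, 1618 and 1418, a log2 fold change of -0.60 ± 0.11 (adjusted p = 0.0248) with all libraries and -0.61 ± 0.05 without replicate 3. Control levels of the sites overlapped, with a log2 difference of -0.02 ± 0.09 (not called), and with TGFβ the ascending level was lower in every library, a difference of -0.23 ± 0.04. *Adamts9*, which encodes another versican-cleaving protease, fell from 10.4, 12.0 and 11.2 to 3.24, 3.12 and 2.73 normalized CPM in ascending fibroblasts (log2 fold change -1.89 ± 0.14, adjusted p = 5.08e-09). In descending fibroblasts it went from 7.43, 10.5 and 15.1 to 2.04, 2.93 and 2.88, a log2 fold change of -2.08 ± 0.34 (adjusted p = 0.0196) with all libraries and -1.77 ± 0.19 without replicate 3. Its control and TGFβ libraries did not overlap, and it was not called between sites.

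*Adamts4*, which encodes an aggrecanase, was higher at the descending site with TGFβ. It was at 13.3, 12.1 and 7.44 normalized CPM in descending control and 15, 19.0 and 16.4 with TGFβ, and at 6.30, 8.24 and 5.06 and 6.53, 6.05 and 7.45 at the ascending site. With TGFβ the descending level was 2.51 times the ascending one (log2 difference, ascending against descending, -1.33 ± 0.11, adjusted p = 1.1e-10). In control the log2 site difference was -0.74 ± 0.31 (not called) with all libraries and -0.95 ± 0.17 without replicate 3. Its response to TGFβ was 0.03 ± 0.17 (not called) in ascending fibroblasts and, in descending ones, 0.61 ± 0.25 (not called) with all libraries and 0.40 ± 0.11 without replicate 3.

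*Adamts8* (chr9:30942562-30963838) and *Adamts15* (chr9:30899155-30922452), whose products also cleave proteoglycans, are neighbors on chromosome 9 and were low in every group. *Adamts8* was at 1.87, 0.998 and 1.85 normalized CPM in ascending control and 7.94, 8.46 and 12.0 with TGFβ, a log2 fold change of 2.57 ± 0.22 (adjusted p = 4.27e-08). In the descending cultures it had 4, 3 and 0 counts in control, at or just above the floor, and was at 4.59, 3.85 and 4.68 normalized CPM with TGFβ. The ratio of its scaled counts with TGFβ to those in control was 39.7 (95% interval 19.0 to 99.7 from counting error only), or 30.6 (14.6 to 76.9) without replicate 3. The descending change was called with all libraries (adjusted p = 0.0128) and without replicate 3 (adjusted p = 3.86e-12). *Adamts8* passed the filter of this comparison only through its TGFβ libraries, so that a rise was built into these tests. Ascending libraries were above descending ones under the same treatment, by a log2 difference of 1.11 ± 0.16 (adjusted p = 1.06e-06) with TGFβ. In control the ratio of ascending to descending counts was 14.4 (6.72 to 36.6) with all libraries, which was not called (adjusted p = 0.111), and 11.1 (5.18 to 28.2) without replicate 3, which was (adjusted p = 0.000165). In that comparison *Adamts8* passed the filter only through its ascending libraries, so that a difference in that direction was built in.

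*Adamts15* was at 2.33, 4.81 and 0 normalized CPM in descending control, 0.0510, 0.271 and 0.189 in descending TGFβ, 0.130, 1.55 and 0.195 in ascending control and 0.157, 0.0946 and 0 in ascending TGFβ. It was highest in descending control replicates 1 and 2 and had no count in replicate 3. The fall with TGFβ in descending fibroblasts was called without replicate 3, with a fitted log2 fold change of -4.34 ± 0.44 (adjusted p = 1.29e-09) that rests on 1, 5 and 4 counts in the TGFβ libraries. In that fit *Adamts15* passed the filter only through its control libraries, so that a fall was built into the test. Between sites in control it passed mainly through descending control replicates 1 and 2. The ratio of its scaled counts in control to those with TGFβ was 16 (8.49 to 34.0) with all libraries, with which the gene did not pass the filter, and 20.8 (11 to 44.1) without replicate 3 (95% intervals from counting error only). Between sites in control its log2 difference was -1.93 ± 1.62 (not called) with all libraries and -2.53 ± 0.61 without replicate 3. With all other libraries kept it was -0.92 without descending control replicate 2 and -3.83 without ascending control replicate 2, neither of them called.

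*Adamts6* and *Adamts10*, whose products are linked to fibrillin microfibrils, rose with TGFβ at both sites. *Adamts6* was at 4.30, 3.25 and 3.31 normalized CPM in ascending control and 25.1, 28.1 and 24.5 with TGFβ, a 7.08-fold level and a log2 fold change of 2.82 ± 0.11 (adjusted p = 1.25e-12). Among descending libraries it went from 8.24, 8.32 and 5.03 to 31.6, 37.5 and 34.3, a log2 fold change of 2.25 ± 0.24 (adjusted p = 0.00486) with all libraries and 2.06 ± 0.10 without replicate 3. No control library overlapped a TGFβ library. Ascending libraries were below descending ones under the same treatment, by a log2 difference of -0.41 ± 0.07 with TGFβ, and in control of -0.99 ± 0.29 (not called) with all libraries and -1.18 ± 0.17 without replicate 3.

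*Adamts10* was at 236, 205 and 212 normalized CPM in ascending control and 378, 393 and 396 with TGFβ, a log2 fold change of 0.83 ± 0.04 (adjusted p = 4.42e-11). The descending levels were 173, 176 and 95.7 in control and 437, 471 and 482 with TGFβ, a log2 fold change of 1.64 ± 0.25 (adjusted p = 0.0165) with all libraries and 1.41 ± 0.05 (adjusted p = 1.29e-19) without replicate 3. The order of the sites turned with treatment. In control every ascending library was above every descending one, a log2 difference of 0.56 ± 0.25 (not called) with all libraries and 0.33 ± 0.06 without replicate 3, whereas with TGFβ every ascending library was below, a log2 difference of -0.25 ± 0.04 (adjusted p = 6.5e-06).

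*Adamts7* and *Adamts12*, whose closely related products cleave cartilage oligomeric matrix protein, went in opposite directions with TGFβ. *Adamts7* was at 7.38, 7.74 and 6.91 normalized CPM in ascending control and 3.60, 2.88 and 3.41 with TGFβ, a log2 fold change of -1.16 ± 0.15 (adjusted p = 6.97e-06). At the descending site it was at 10.4, 10.2 and 11.1 and 4.13, 4.77 and 4.16, a log2 fold change of -1.29 ± 0.18 (adjusted p = 0.0125) with all libraries and -1.25 ± 0.14 without replicate 3. *Adamts12* was at 60.7, 65.3 and 68.0 in ascending control and 195, 206 and 191 with TGFβ, a 3.04-fold level and a log2 fold change of 1.61 ± 0.05 (adjusted p = 2.24e-14). Descending libraries of *Adamts12* went from 94.7, 102 and 162 to 299, 333 and 323, a log2 fold change of 1.40 ± 0.23 (adjusted p = 0.0203) with all libraries and 1.70 ± 0.06 without replicate 3. For both genes control and TGFβ libraries did not overlap, and ascending libraries were below descending ones under the same treatment. The log2 site difference with TGFβ was -0.40 ± 0.18 (not called) for *Adamts7* and -0.69 ± 0.04 for *Adamts12*. In control it was -0.52 ± 0.16 (not called) for *Adamts7* and -0.88 ± 0.23 (not called) for *Adamts12* with all libraries, and -0.48 ± 0.12 and -0.59 ± 0.06 without replicate 3. *Adamts16*, *Adamts17*, *Adamts18* and *Adamts20* had at most 2, 7, 2 and 4 counts in a library.

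**Figure D5:**
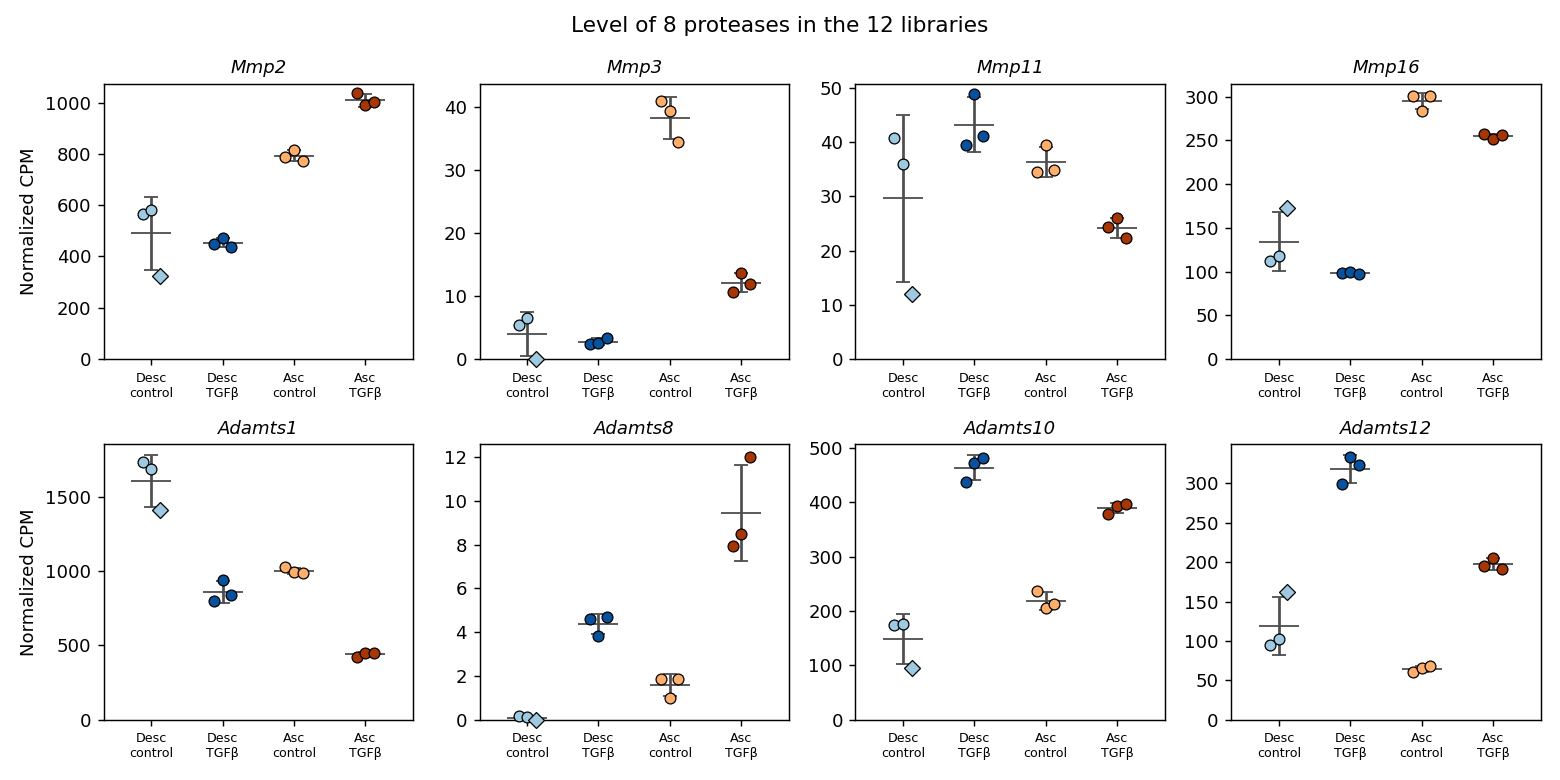
Level of 8 proteases in normalized CPM in each of the 12 libraries (points), with the mean and SD of each group (n = 3). The diamond is descending control replicate 3. *Mmp2*, *Mmp3* and *Mmp16* are higher at the ascending site in every library, *Adamts1* is lower there under the same treatment and falls with TGFβ, and *Adamts8*, *Adamts10* and *Adamts12* rise with TGFβ.

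The second question was which of the genes separate the sites. In control, with all 6 libraries, 3 of 25 genes tested differed: *Mmp16* and *Timp1* were higher and *Adamts1* lower in ascending fibroblasts, against a background of 2.65% of all genes tested (1.19% higher and 1.47% lower). Without descending control replicate 3 the count was 20 of 25, 8 higher and 12 lower in ascending fibroblasts, against a background of 31.6% (16.4% higher and 15.2% lower). The 8 higher were *Mmp2*, *Mmp3*, *Mmp12*, *Mmp16*, *Timp1*, *Timp2*, *Adamts8* and *Adamts10*. *Mmp12* was at 3.00, 32.4 and 2.77 normalized CPM in ascending control, against 0.389 and 0.477 in descending control replicates 1 and 2. A fit without both ascending control replicate 2 and descending control replicate 3 was not run. *Adamts8* passed the filter of this comparison only through its ascending libraries. With TGFβ, where replicate 3 of the descending control does not enter, 20 of 25 genes differed against a background of 36.3% (18.1% higher and 18.2% lower). Then 6 were higher in ascending fibroblasts, namely *Mmp2*, *Mmp3*, *Mmp9*, *Mmp16*, *Timp1* and *Adamts8*, and 14 were lower. The 14 lower ones were *Timp3*, *Mmp11*, *Mmp14*, *Mmp15*, *Mmp17*, *Mmp19*, *Mmp23*, *Mmp28*, *Adamts1*, *Adamts4*, *Adamts5*, *Adamts6*, *Adamts10* and *Adamts12*. The 5 tested and not called were *Mmp12*, *Mmp13*, *Timp2*, *Adamts7* and *Adamts9*. The counts with TGFβ were 18 to 21 with single libraries left out. With the 12 libraries in one fit, where 7.56% of all genes tested were called, 7 of 26 genes were called, namely *Mmp2*, *Mmp9*, *Mmp16*, *Timp1*, *Adamts1*, *Adamts4* and *Adamts12*.

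The third question was whether the response to TGFβ differed between sites, as an interaction of site and treatment over the 12 libraries, where a positive value is a more positive change in ascending fibroblasts. None of the 26 genes tested passed in edgeR's test, 5 had an unadjusted p under 0.05 (*Mmp9*, *Mmp11*, *Timp2*, *Adamts8* and *Adamts10*), and DESeq2's Wald test called 2, *Timp2* and *Adamts8*, against 3.40% of all genes with that test. The background of edgeR's test was 0.806% of all genes tested (0.321% positive and 0.485% negative). Without descending control replicate 3, 11 of 26 passed, against a background of 13.5% (6.07% positive and 7.40% negative). A more positive change in ascending fibroblasts was then called for *Mmp2*, *Mmp9* and *Adamts6*, and a more negative one for *Mmp11*, *Mmp17*, *Timp1*, *Timp2*, *Adamts1*, *Adamts5*, *Adamts8* and *Adamts10*. The interaction of *Adamts8* was -2.69 ± 0.63 (adjusted p = 0.095) with all libraries and -2.30 ± 0.54 (adjusted p = 0.00397) without replicate 3. That of *Adamts10* was -0.80 ± 0.26 (adjusted p = 0.295) and -0.57 ± 0.07 (adjusted p = 1.4e-06), and that of *Mmp2* 0.46 ± 0.25 (adjusted p = 0.56) and 0.68 ± 0.05 (adjusted p = 1.72e-09) in the same order. *Mmp11* had -1.12 ± 0.47 (adjusted p = 0.454) with all libraries and -0.75 ± 0.12 (adjusted p = 6.36e-05) without replicate 3. For *Mmp16*, *Timp3* and *Adamts12* the interaction without that library was 0.01, -0.04 and -0.09 on the log2 scale, with standard errors of 0.06, 0.06 and 0.07.

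Around these genes, 50 others of the same pathway were counted, of which 38 were tested in ascending fibroblasts. With TGFβ 12 of the 38 rose and 21 fell, against the background of 55.8% of all genes. In descending fibroblasts 4 of 39 rose and 5 fell with all libraries, against 3.59% up and 4.48% down over all genes tested. Without replicate 3, 13 of 40 rose and 19 fell, against 26.6% up and 26.3% down. Of 14 regulators and partners, 4 rose and 6 fell of 12 tested in ascending fibroblasts. In descending ones 2 rose and 2 fell of 13 with all libraries, and 6 rose and 5 fell without replicate 3. Among them *Reck*, a membrane-anchored MMP inhibitor, fell at both sites, with a log2 fold change of -1.03 in ascending (adjusted p = 5.19e-13) and -0.95 in descending fibroblasts (adjusted p = 0.00687, and -0.95 with 3.53e-15 without replicate 3). *Thbs1*, encoding thrombospondin-1, rose by 1.07 in ascending (adjusted p = 9.26e-15) and 0.75 in descending fibroblasts (adjusted p = 0.00678, and 0.77 with 1.09e-14 without replicate 3) on the same scale. *Furin*, encoding a proprotein convertase that activates membrane-type MMPs and ADAMTS proteases, rose by 0.64 in ascending fibroblasts (adjusted p = 2.1e-10) and, without replicate 3, by 0.65 in descending ones (adjusted p = 2.29e-11). With all libraries its descending value was 0.96 (adjusted p = 0.172, not called).

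Of 6 ADAMTS-like genes, whose products lack the protease domain, 5 were tested with TGFβ at each site. In ascending fibroblasts 1 rose and 3 fell, with a median log2 fold change of -0.42, against 55.8% of all genes called. In descending ones 1 rose and 0 fell with all libraries (8.07% of all genes called), and 1 rose and 3 fell without replicate 3 (52.9%). The one that rose, *Adamtsl2*, had a log2 fold change of 1.50 with TGFβ in ascending fibroblasts (adjusted p = 0.0332). In the descending ones it rose from 0.0433 ± 0.0751 normalized CPM, under the floor, to 2.27 ± 0.150 (SD, n = 3 each, adjusted p = 0.0367, and 9.85e-09 without replicate 3). There *Adamtsl2* passed the filter only through its TGFβ libraries, so that a rise was built into these tests. The procollagen-trimming *Adamts2* had log2 fold changes of -0.75 in ascending and -1.42 in descending fibroblasts (adjusted p = 4.57e-10 and 0.0418). Without replicate 3 the descending value of *Adamts2* was -1.69 (adjusted p = 6.89e-22). Among the proteoglycan substrates, *Vcan*, encoding versican, had a log2 difference between ascending and descending fibroblasts of -2.30 in control with all libraries (adjusted p = 0.0371), -1.81 without replicate 3 (adjusted p = 1.97e-09) and -1.67 with TGFβ (adjusted p = 1.36e-21). Its mean level was 42.9 ± 6.39 normalized CPM in ascending and 212 ± 104 in descending control with all libraries (SD, n = 3 each). *Acan*, encoding aggrecan, stood at 3.54 ± 1.56 normalized CPM in ascending and 0.0531 ± 0.0542 in descending TGFβ libraries (SD, n = 3 each) and the difference was called (adjusted p = 4.74e-10). *Acan* passed the filter of that comparison only through its ascending libraries, so that a difference in that direction was built into the test. In the comparison of sites with TGFβ, 14 of 40 pathway genes tested were higher and 15 lower in ascending fibroblasts, against the background of 36.3%.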

How the data were processed

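The authors deposited read counts per gene symbol, as raw counts without normalization, and the labels' processing notes name FastQC, STAR, featureCounts, DESeq2 and the mm10 build. The strand setting and the counting of multi-mapping reads were not given in the sources used here. Groups came from the sample titles. Counts were tested in R 4.3.3 with edgeR 4.0.16 (TMM, filterByExpr at its defaults, min.count 10 and min.total.count 15, quasi-likelihood F-test, two-sided, Benjamini-Hochberg over all genes tested, adjusted p under 0.05), using the 6 libraries of each pair of groups, or all 12 for the interaction. The standard error was the size of the log2 fold change divided by the square root of F. DESeq2 1.42.0, other filters, the replicate block, a fit of the 12 libraries and leaving out each library in turn were the alternatives. Ratios of low counts carry exact 95% intervals (scipy 1.17.1, Python 3.11.15). The fits were tested on simulated data, where edgeR's share of false calls ran above its threshold in some of the comparisons. The simulated data held no library that stood apart, so they do not cover the fits with descending control replicate 3. Positions, exon lengths and shared 50-base sequences came from GENCODE vM21 (GRCm38), and promoters from RefSeq (GRCm38.p6). The 37 genes and all lists were chosen with earlier results of these data known. A gene called in at least 1 comparison, with or without descending control replicate 3, was described library by library, or by group means where its largest called log2 fold change was under 0.5. The others were given by their counts.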

Additional observations from a re-analysis of the deposited data

Results flagged for a closer look

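The response to TGFβ differed between sites for 11 genes when descending control replicate 3 was left out, by the interaction term of edgeR's quasi-likelihood test (11 libraries, adjusted over all genes tested). With all 12 libraries none of them passed. Values are log2 differences, positive where the change was more positive in ascending fibroblasts. The gelatinase genes *Mmp2* and *Mmp9* had 0.68 (adjusted p = 1.72e-09) and 4.97, and *Adamts6* had 0.77 (0.00117). *Adamts8* had -2.30 (0.00397), *Mmp11* -0.75 (6.36e-05), *Mmp17* -0.68 (0.033) and *Adamts10* -0.57 (1.4e-06). The inhibitor genes *Timp2* and *Timp1* had -0.26 (0.000374) and -0.20 (0.0287), and the proteoglycanase genes *Adamts1* and *Adamts5* -0.20 (0.0449) and -0.19 (0.0429). *Mmp9* passed the count filter only through ascending TGFβ, the group where it is high, so its p is not given as support. Its value is a fitted one that rests on ascending controls with at most 3 counts, all at or under the floor, and on descending libraries with at most 7. It ranged from 2.48 to 5.80 with single libraries left out, and was called only without descending control replicate 3. The value of *Adamts8* rests on descending controls with at most 4 counts.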

How the results depend on the processing

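Of the 5 counts of genes called, the 22 with TGFβ in ascending fibroblasts came to 14 with the 12 libraries in one fit, to 23 of 35 with no filter on low counts and to 22 with each library left out in turn. The 10 in descending fibroblasts became 8 with no filter on low counts, 12 with DESeq2, 14 with the 12 libraries in one fit and 2 to 21 with single libraries left out, 21 being without control replicate 3. The 3 between sites in control became 9 with DESeq2's Wald test, 1 with no filter on low counts, 11 with the 12 libraries in one fit and 0 to 20 with single libraries left out, 20 being without descending control replicate 3. The 20 between sites with TGFβ became 7 in the fit of 12 libraries. The 0 of the interaction became 2 with DESeq2 and 0 to 11 with single libraries left out, 11 again being without descending control replicate 3. Whether samples with the same replicate number were paired was not stated. Same-numbered libraries deviated from their group means with a correlation of -0.0357 to 0.115. Not every sample correlated best with its own number, which gave no support for pairing but cannot exclude it. With the replicate block the counts were 22 in ascending fibroblasts (7766 over all genes), 0 in descending ones (95), 0 between sites in control (0), 20 between sites with TGFβ (5056) and 0 for the interaction (50). Under the block the sign turned for *Mmp3* (0.16) and *Mmp15* (0.073) with TGFβ in descending fibroblasts, *Mmp23* (0.016) between sites in control and *Mmp19* (-0.0014) in the interaction.

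A sign turned under 32 settings for 18 log2 values, none of them called with all libraries. With single libraries left out, *Mmp13* ranged from -0.10 to 0.61 and *Adamts4* from -0.12 to 0.22 with TGFβ in ascending fibroblasts. In descending fibroblasts the ranges were -0.33 to 0.026 for *Mmp2*, -1.09 to 0.0045 for *Mmp3*, -1.57 to 0.65 for *Mmp12* and -0.70 to 0.15 for *Mmp15*. Between sites in control they were -0.072 to 0.60 for *Mmp11*, -0.35 to 0.51 for *Mmp15*, -0.56 to 0.18 for *Mmp17*, -0.46 to 0.11 for *Mmp23* and -0.18 to 0.34 for *Adamts9*. For the interaction they were -1.07 to 0.70 for *Mmp13*, -0.071 to 0.16 for *Mmp19*, -0.48 to 0.079 for *Mmp23*, -0.040 to 0.45 for *Timp3*, -0.12 to 0.40 for *Adamts9*, -0.086 to 0.34 for *Adamts12* and -0.014 to 2.86 for *Adamts15*. The cause was not tested. Over all genes, the count called in descending fibroblasts was 1115 with edgeR, 2531 with DESeq2, 3570 in the fit of 12 libraries and 7576 without control replicate 3, and in ascending fibroblasts it was 7767 and, in the fit of 12 libraries, 2338. Between sites in control it was 374 with edgeR and 1151 with DESeq2, and for the interaction 118 and 497. Between sites with TGFβ it was 4963 and, in the fit of 12 libraries, 1106. DESeq2 gave no adjusted p for *Mmp12* in 3 comparisons, the interaction among them, nor for *Mmp9* (unadjusted p = 0.00668), *Mmp13* (0.771) and *Adamts15* (0.681) in the interaction, so that its count of 2 leaves out these 4 genes. Depth limits *Mmp9*, *Mmp13*, *Adamts8* and *Adamts15*, which have groups at or near the floor.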
